A study of Mus musculus with 6 samples.

Results

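Retinal transcripts of 10 genes whose products carry a CRAL-TRIO (SEC14 homology) lipid-binding domain or the related BCH form of it were examined on 6 whole-transcript arrays. The genes were Ptpn9, Sec14l1, Sec14l2, Rlbp1, Ttpa, Clvs1, Clvs2, Atcay, Bnip2 and Prune2. They were taken by gene symbol from array transcript clusters annotated with that gene alone, and all 10 were found among 19938 genes that have such a cluster. A transcript cluster is the group of probes that reads a transcript, and its value is a normalised log2 signal. Together the 10 genes had 12 clusters, 8 genes with 1 cluster and 2 (Ttpa and Prune2) with 2, and the cluster with the highest mean over the 6 arrays stood for the gene.

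The retinae came from newborn mice (postnatal day 0) on the C57BL/6NTac background, 3 animals genotyped as Meg2 knockout and 3 as wild type, with Meg2 being another name of Ptpn9. All animals were untreated, and both retinae of an animal were pooled before RNA extraction. The labels do not give the knockout allele, which exons it affects or whether littermates were used. The samples are called biological replicates and carry the numbers 1 to 3 in each genotype, so p-values measure the spread between these arrays. Both arrays with the number 2 carried high Xist signal (12.54 in knockout retinae and 12.55 in wild-type retinae) together with Y-linked signal (Uty at 7.18 in the knockout and 7.67 in wild type), between the levels on the other arrays, although the labels name 1 animal per sample. Both arrays with the number 1 had high Xist (12.58 in knockout, 12.73 in wild type) and low Uty signal (5.22 in knockout, 4.71 in wild type). Both with the number 3 had low Xist (6.26 in knockout, 6.52 in wild type) and high Uty signal (9.53 in knockout, 9.34 in wild type). The replicate number thus goes with the Xist and Y-linked pattern, and effects of the number and of that pattern cannot be told apart. Results were also computed without number 2. Array medians ran from 7.84 to 7.91 on the log2 scale.

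The CRAL-TRIO domain folds into a pocket that holds a lipid such as a phosphoinositide, a retinoid or a tocopherol, and proteins with it move lipids between membranes or read the lipid composition of a membrane. In the eye the best known member is CRALBP, the product of Rlbp1, which holds the retinoids of the visual cycle in the pigment epithelium and in Muller glia, and whose loss in humans impairs dark adaptation. PTP-MEG2, the product of Ptpn9, joins this domain to a tyrosine phosphatase domain and sits on secretory vesicles, where it is known for promoting vesicle fusion. In the BCH group, to which Bnip2, Atcay and Prune2 belong, the domain mainly binds other proteins, small GTPases and their regulators among them.

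Start-site windows are shown for Ptpn9, the gene named in the knockout, and for Rlbp1 and Sec14l2, which of the other genes were lower in the knockout within each replicate number. Each window runs 250 bases before to 50 bases after the start in RefSeq (GRCm38.p6), 5′ to 3′ on the gene's strand, at chr9:56994718-56995017 on the plus strand for Ptpn9, at chr7:79386978-79387277 on the minus strand for Rlbp1 and at chr11:4118680-4118979 on the minus strand for Sec14l2. Capitals mark every match, on either strand, to the GC box GGGCGG, the TATA box TATAAA or the Crx and Otx2 core TAATCC.
Ptpn9: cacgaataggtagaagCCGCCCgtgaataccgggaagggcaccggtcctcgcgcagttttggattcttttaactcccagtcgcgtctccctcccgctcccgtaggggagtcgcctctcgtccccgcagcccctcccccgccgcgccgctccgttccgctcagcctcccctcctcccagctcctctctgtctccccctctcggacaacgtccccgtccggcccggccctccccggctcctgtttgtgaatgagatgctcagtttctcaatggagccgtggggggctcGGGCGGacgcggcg
Rlbp1: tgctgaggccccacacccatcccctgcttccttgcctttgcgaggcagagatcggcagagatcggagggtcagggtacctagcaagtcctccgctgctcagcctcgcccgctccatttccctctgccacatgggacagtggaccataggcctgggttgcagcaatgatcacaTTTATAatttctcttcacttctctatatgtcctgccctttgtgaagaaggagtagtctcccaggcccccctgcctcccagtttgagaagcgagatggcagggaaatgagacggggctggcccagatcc
Sec14l2: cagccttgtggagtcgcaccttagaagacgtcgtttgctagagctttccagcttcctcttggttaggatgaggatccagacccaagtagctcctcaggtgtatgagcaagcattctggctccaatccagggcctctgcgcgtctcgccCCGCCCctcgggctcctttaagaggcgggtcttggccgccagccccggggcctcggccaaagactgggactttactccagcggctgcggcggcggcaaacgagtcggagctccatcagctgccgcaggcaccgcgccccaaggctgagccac
The Ptpn9 window held 2 GC boxes and 32 CpG dinucleotides, with a GC content of 67.7%. That of Sec14l2 held 1 GC box and 21 CpG dinucleotides (63.3% GC). The Rlbp1 window held no GC box, 1 match to the letters of the TATA box and 8 CpG dinucleotides (57.3% GC). That match, TTTATA, is on the strand opposite to the gene, so it does not show a TATA box of Rlbp1. Over all 32851 windows of the same length, 35.7% held a match on either strand to the GC box. The shares were 13.6% for the TATA box and 7.06% for the Crx and Otx2 core, and the medians were 52.7% GC and 7 CpG dinucleotides. None of the 9 windows found for 7 of the 10 genes held the Crx and Otx2 core, which says only that these letters are not in these windows.

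Ptpn9, the gene named in the knockout, had less signal on every knockout array. Its log2 signal was 9.31, 9.58 and 9.28 on the knockout arrays, and 10.05, 9.93 and 9.94 on the wild-type arrays. The groups did not overlap, and the knockout array with the number 2 was the highest of its group. Knockout signal stood at 67.0% of wild type, with a 95% interval from 0.58 to 0.77 as a ratio (log2 difference -0.58, SE 0.087; limma, unadjusted p = 0.000108). Over the 23410 clusters tested the adjusted p was 0.437, and 0.0801 to 0.9999 over the 17 alternatives. A difference at least as far below 0 was seen in 2 of the 23410 clusters (0.00854%), Ptpn9 included. Within replicate numbers 1, 2 and 3 the difference was -0.73, -0.34 and -0.66, so it was smallest for the number with mixed Xist and Y-linked signal. Without that number it was -0.69 (SE 0.081; limma, unadjusted p = 4.8e-05, adjusted p = 0.282). A single cluster reads the transcript, and how its probes lie relative to the change in the knockout allele is not known here.

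**Figure D1:**
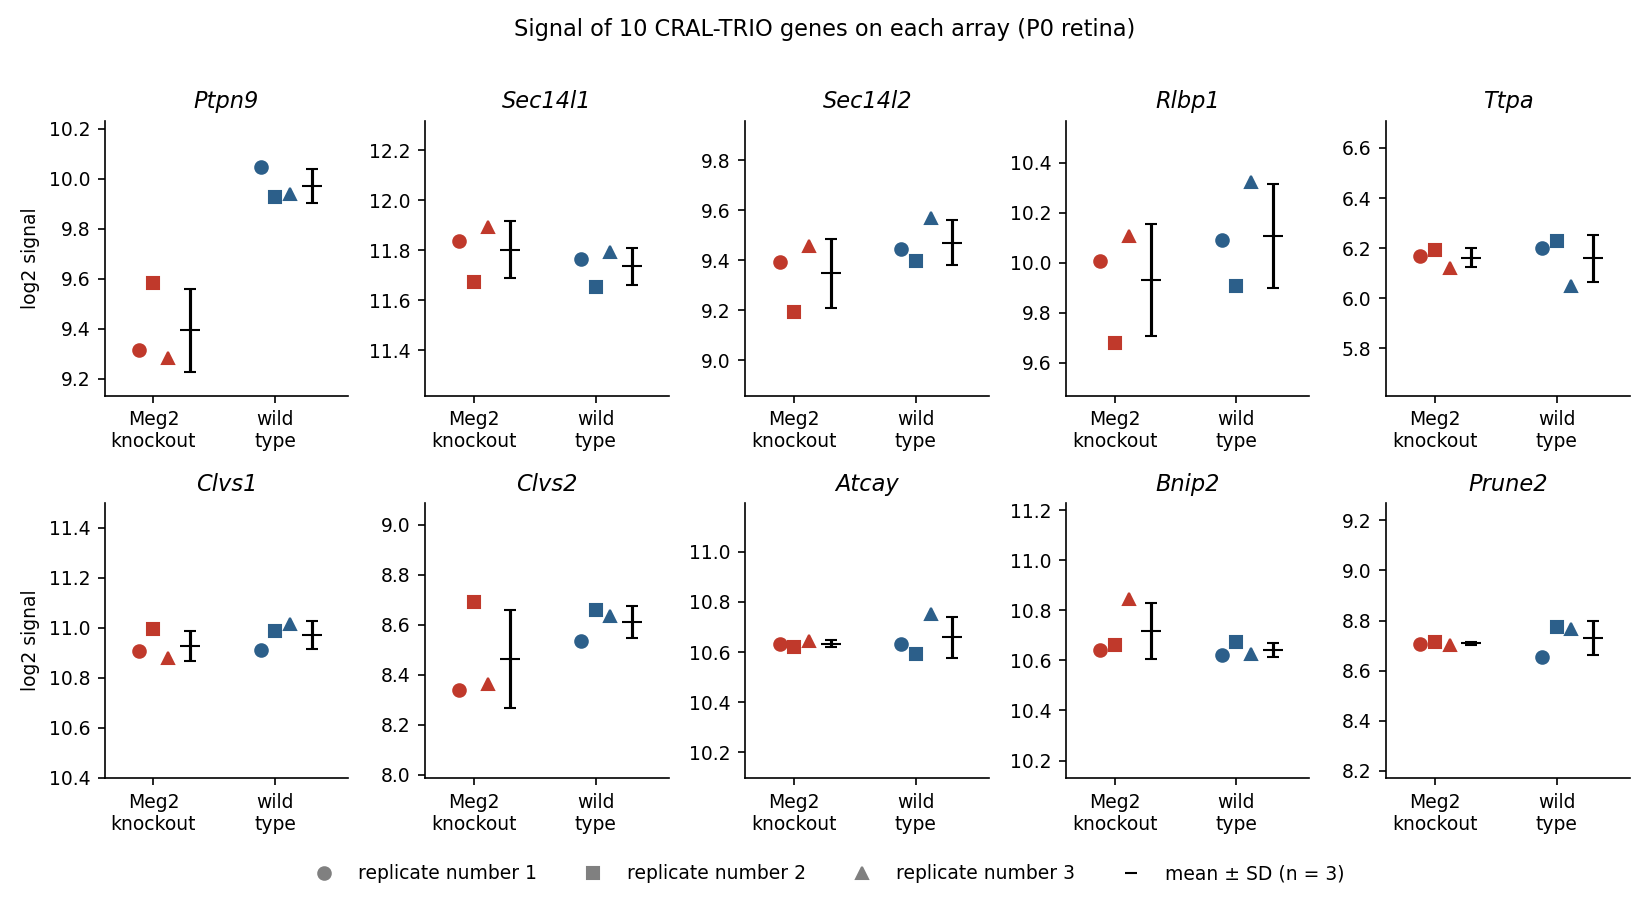
Log2 signal of the 10 genes on each array, Meg2 knockout left and wild type right, each axis spanning the same 1.1 log2 units. Symbols give the replicate number and black bars the mean ± SD (n = 3). In Ptpn9 alone of the 10 genes the 3 knockout arrays lay apart from the 3 wild-type arrays.

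Over the whole table limma called 0 clusters at an adjusted p under 0.05 (0% of those tested), and 803 (3.43%) at an unadjusted p under 0.05, of which 408 (1.74%) were lower. At the unadjusted level 1 of the 10 genes passed, Ptpn9, and none of the other 9 (lowest unadjusted p = 0.165, limma). Arrays of the genotypes did not overlap in 1973 clusters (8.43%), and of the 10 genes in Ptpn9 only. Of the other 9 genes 6 lay below 0 and 3 above, with a median difference of -0.025 on the log2 scale. Over all 23410 tested clusters 11539 lay below 0 and the median was 0.0012. Without replicate number 2 in both genotypes the differences of the other 9 genes ran from -0.23 (Clvs2) to 0.12 (Bnip2). With all arrays their 95% intervals reached down to -0.47 (Rlbp1) and up to 0.24 (Sec14l1).

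After each genotype's mean was taken off, knockout and wild-type arrays that share a number correlated over clusters, at 0.476 for number 1, 0.485 for number 2 and 0.455 for number 3. These numbers also differ in their Xist and Y-linked signal, as given above. With the number as a block, 3 of the 10 genes had an unadjusted p under 0.05, all of them lower (Ptpn9, Rlbp1 and Sec14l2). In that fit 8.81% of all tested clusters had an unadjusted p under 0.05 in either direction and 4.36% were lower at that level, and 1 cluster (0.00427%), none of the 10 genes, passed adjustment. In 9 of the 10 genes, all but Ptpn9, the means of the 3 replicate numbers spread over a wider range than the genotypes differed, a share near the 85% of all tested clusters for which this held. A range over 3 means and a difference between genotype means are unlike measures, so their sizes do not rank the effects. In 3 of the 10 genes, Ptpn9, Rlbp1 and Sec14l2, knockout was lower within all 3 numbers, which held for 15.9% of all tested clusters, and Sec14l1 was higher within all 3. The direction within all numbers was the same, either way, for 32.4% of clusters.

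**Figure D2:**
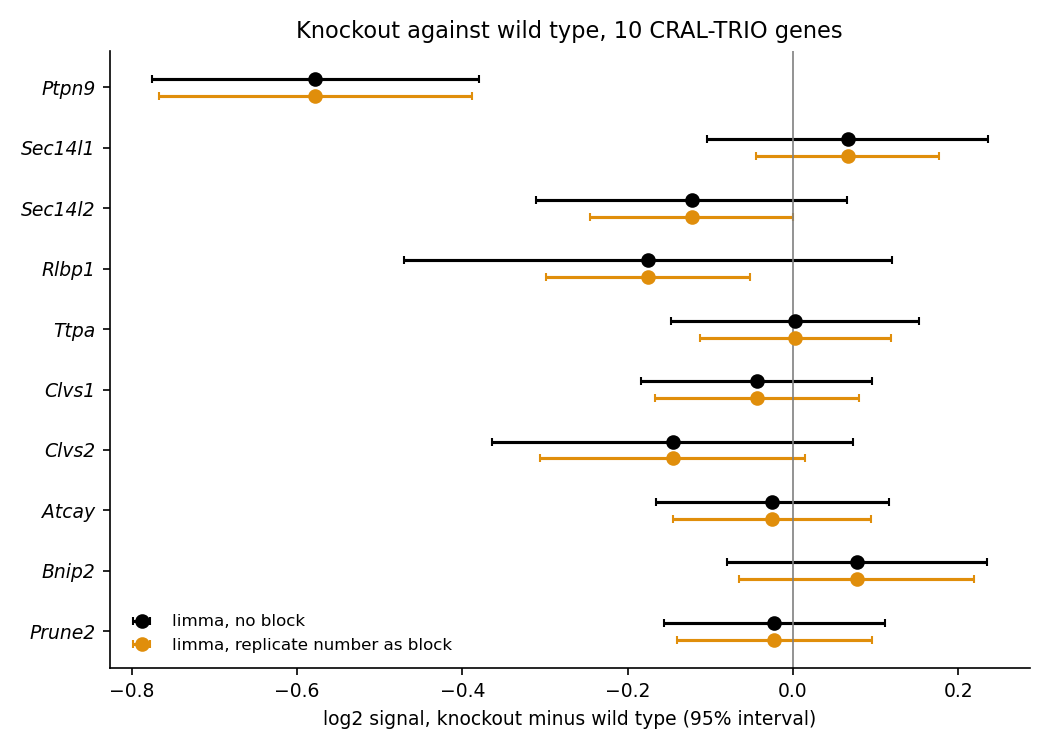
Knockout minus wild type in log2 signal with its 95% interval for each gene, from limma without a block (black) and with the replicate number as a block (orange). The Ptpn9 intervals lie wholly below 0 in both fits, those of Rlbp1 and Sec14l2 only with the block, and the other 7 genes have intervals that span 0 in both.

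Among the carriers of retinoids and tocopherol, Rlbp1 differed most. Its knockout arrays read 10.01, 9.68 and 10.11, and its wild-type arrays 10.09, 9.91 and 10.32. The groups overlapped, and in both genotypes the array with the number 2 was the lowest and that with the number 3 the highest. Rlbp1 averaged 9.93 ± 0.22 in knockout retinae and 10.11 ± 0.21 in wild-type retinae (SD, n = 3 each), 88.6% of wild type (log2 difference -0.18, SE 0.13, 95% interval -0.47 to 0.12). It did not pass the test (limma, unadjusted p = 0.212, adjusted p = 1.00). Within the numbers 1, 2 and 3 the difference was -0.083, -0.23 and -0.22. With the block the SE was 0.051 and the interval -0.30 to -0.052 (limma, unadjusted p = 0.0122, adjusted p = 0.514). The adjusted p lay between 0.514 and 1.00 over its 17 alternatives. Without knockout replicate 2 the difference was -0.050, without wild-type replicate 3 it was -0.067, and without wild-type replicate 2 it was -0.28. Without number 2 in both genotypes it was -0.15 (SE 0.10).

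Sec14l2 encodes supernatant protein factor, which binds tocopherol and squalene and stimulates a step of cholesterol synthesis. It read 9.39, 9.19 and 9.46 in the knockout, and 9.44, 9.40 and 9.57 in the wild type. As with Rlbp1, the groups overlapped, and number 2 was lowest and number 3 highest in both genotypes. Knockout stood at 91.8% of wild type (log2 difference -0.12, SE 0.083, 95% interval -0.31 to 0.065; limma, unadjusted p = 0.174, adjusted p = 1.00). Within the numbers the difference was -0.049, -0.21 and -0.11, and with the block the unadjusted p was 0.0496 and the adjusted p 0.566 (limma), the lowest adjusted p over its 17 alternatives. Without knockout replicate 2 the difference was -0.045, without wild-type replicate 3 it was -0.073, and without number 2 in both genotypes it was -0.081 (SE 0.083). The root-mean-square distance between the centred log2 profiles of Sec14l2 and Rlbp1 over the 6 arrays was 0.090. The distance did not set this pair apart, since Sec14l2 lay at 0.087 from Atcay, and Clvs1 and Prune2 lay nearest, at 0.036.

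Ttpa, the transfer protein that loads alpha-tocopherol for export from the liver and whose loss causes vitamin E deficiency with retinal degeneration, was read by a cluster of low signal. Its knockout arrays read 6.17, 6.19 and 6.12, and its wild-type arrays 6.20, 6.23 and 6.05. The groups overlapped fully and the difference was 0.0028 (SE 0.066, 95% interval -0.15 to 0.15; limma, adjusted p = 1.00). Its other cluster averaged 4.91 ± 0.11 in knockout retinae and 4.85 ± 0.036 in wild-type retinae (SD, n = 3 each), a difference of 0.060 (SE 0.068). The Ttpa clusters lay below 8.51, the median signal of tested clusters. Probes of different clusters respond differently and the files hold no detection calls, so cluster signal ranks no gene's expression above another's and does not show whether the retina expressed Ttpa.

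**Figure D3:**
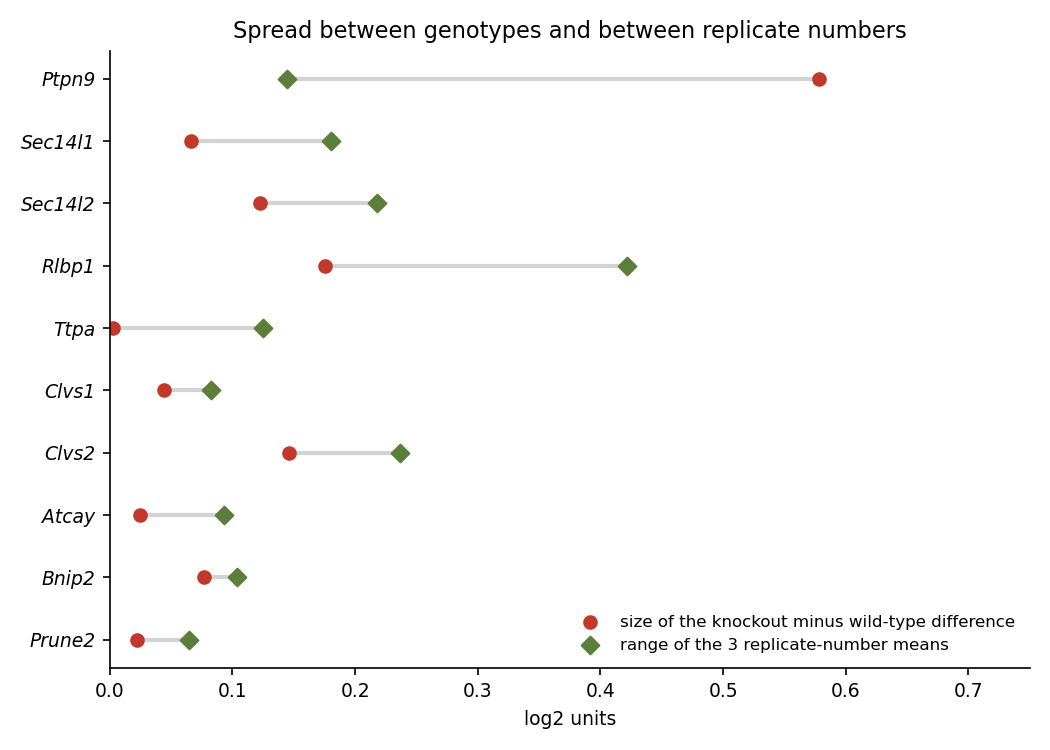
Size of the knockout minus wild-type difference (red circles) and range of the means of the 3 replicate numbers (green diamonds) for each gene, both in log2 units. For Ptpn9 the genotype difference is the larger, and for the other 9 genes the range between numbers is, as in 85% of all tested clusters. A range and a difference of means are unlike measures, so their sizes do not rank the effects.

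Sec14l1, a broadly expressed protein that links the domain to vesicle traffic at the Golgi, read 11.84, 11.67 and 11.89 in the knockout, and 11.76, 11.65 and 11.79 in the wild type. The groups overlapped, while knockout was the higher within each number, by 0.075, 0.022 and 0.10. The difference was 0.066 (SE 0.075, 95% interval -0.10 to 0.24; limma, unadjusted p = 0.402, adjusted p = 1.00). Like Rlbp1 and Sec14l2 it was lowest on the arrays with the number 2 and highest on those with the number 3, with number means of 11.80, 11.66 and 11.84.

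The clavesin genes Clvs1 and Clvs2 encode proteins of neurons that bind phosphoinositides on clathrin-coated membranes and shape late endosomes. Clvs2 read 8.34, 8.69 and 8.36 in the knockout, and 8.54, 8.66 and 8.63 in the wild type. The knockout arrays with the numbers 1 and 3 were the lowest of the 6, and that with the number 2 the highest. The difference was -0.15 (SE 0.096, 95% interval -0.36 to 0.073; limma, unadjusted p = 0.165, adjusted p = 1.00), and within the numbers -0.20, 0.031 and -0.27. Without knockout replicate 2 it was -0.26 (limma, unadjusted p = 0.00516, adjusted p = 0.831), and without replicate 2 of both genotypes -0.23 (SE 0.079; limma, unadjusted p = 0.0206, adjusted p = 0.999). Over its 17 alternatives the adjusted p of Clvs2 lay between 0.579 and 1.00.

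Clvs1 differed by less. It read 10.91, 10.99 and 10.88 in the knockout, and 10.91, 10.99 and 11.01 in the wild type, so the arrays with the numbers 1 and 2 were near equal between genotypes and those with the number 3 differed by -0.14. The difference was -0.044 (SE 0.062, 95% interval -0.18 to 0.096; limma, adjusted p = 1.00). As a ratio the interval of Clvs1 ran from 0.88 to 1.07 and that of Clvs2 from 0.78 to 1.05.

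In the BCH group none of the 3 genes differed beyond the spread between arrays. Atcay, which encodes caytaxin, the neuronal protein lost in the ataxic jittery mouse, read 10.63, 10.62 and 10.65 in the knockout, and 10.63, 10.59 and 10.75 in the wild type. Its difference was -0.025 (SE 0.062, 95% interval -0.17 to 0.12; limma, adjusted p = 1.00). The knockout arrays lay close together, inside the range of the wild-type arrays.

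Prune2, a large protein of nervous tissue with a BCH domain at its end, read 8.71, 8.72 and 8.70 in the knockout, and 8.65, 8.77 and 8.76 in the wild type. Its difference was -0.022 (SE 0.059, 95% interval -0.16 to 0.11; limma, adjusted p = 1.00). Its other cluster averaged 7.56 ± 0.15 in knockout retinae and 7.68 ± 0.11 in wild-type retinae (SD, n = 3 each), with a difference of -0.12 (SE 0.088; limma, unadjusted p = 0.204) that was below 0 within each number. The sign was the same in both clusters, and neither passed the test.

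Bnip2, which encodes a scaffold for Cdc42 and its regulators, read 10.64, 10.66 and 10.85 in the knockout, and 10.62, 10.67 and 10.63 in the wild type. The knockout array with the number 3 stood above the other 5, which spanned 10.62 to 10.67. The difference was 0.077 (SE 0.069, 95% interval -0.080 to 0.23; limma, unadjusted p = 0.297, adjusted p = 1.00), and 0.012 without knockout replicate 3. Bnip2 lies on chromosome 9, as Ptpn9 does, with 139 measured genes between them.

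A wider list of 15 other genes with such a domain was measured in full, and none of them passed an unadjusted p of 0.05 (lowest 0.223, limma). Their differences ran from -0.074 to 0.092, with 11 above 0, 4 below and a median of 0.017, beside 11871 of all 23410 tested clusters above 0. The clusters with the highest signal, a property of their probes too, were those of Arhgap1, a GTPase-activating protein for Cdc42 (0.053, SE 0.062), Nf1, the Ras GTPase-activating protein neurofibromin (0.017, SE 0.057), and Gdap2 (0.0036, SE 0.064). In Trio, an exchange factor for Rac in axon guidance, the arrays did not overlap, at 9.79, 9.85 and 9.87 in the knockout and 9.88, 9.91 and 9.93 in the wild type (log2 difference -0.074, SE 0.056; limma, unadjusted p = 0.223). Lower arrays without overlap were seen in 4.35% of all tested clusters.

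Of 16 genes of retinoid handling and the visual cycle, in which CRALBP works, 14 had a cluster of their own. Of these 1 had an unadjusted p under 0.05 and was higher, 12 differences lay above 0 and 2 below, and the median was 0.049. Differences above 0 were seen in 11871 of all 23410 tested clusters, and in 11 of the 15 other genes with the domain. Unadjusted calls with higher signal were made for 1.69% of all tested clusters. With the replicate block 2 were higher at that level (Rbp4 and Rbp3), beside 4.46% of all tested clusters, and 1 was lower, the retinol dehydrogenase gene Rdh12 (-0.16; limma, unadjusted p = 0.0397), beside 4.36%. In the fit without the block the gene was Rbp4, the carrier of retinol in blood plasma, which read 7.39, 7.72 and 8.31 in the knockout, and 7.03, 7.30 and 7.17 in the wild type. Its groups did not overlap and the difference was 0.64 (SE 0.20; limma, unadjusted p = 0.0103, adjusted p = 1.00), or 0.39 without knockout replicate 3.

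Higher arrays without overlap were seen in 3 of the 14, beside 4.08% of all tested clusters. Besides Rbp4 these were Rdh10, the retinol dehydrogenase that feeds retinoic acid synthesis (0.090, SE 0.065), and Rbp3, the retinoid carrier between photoreceptors and pigment epithelium (0.12, SE 0.067), both higher in the knockout and neither past the test (limma, unadjusted p = 0.202 and 0.1004). With the replicate block the unadjusted p of Rbp3 was 0.0493 (limma, adjusted p = 0.566) and that of Rdh10 0.114. The retinal reductase gene Rdh11 differed by 0.0079 (SE 0.082). Rpe65, the isomerase that defines the pigment epithelium, read between 5.55 and 5.75 in the knockout and between 5.59 and 5.62 in the wild type, with a difference of 0.049 (SE 0.066).

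Genes of reported PTP-MEG2 substrates and of the vesicle fusion machinery were near 0. Of 8 listed genes 7 had a cluster of their own, and none had an unadjusted p under 0.05 (lowest 0.140, limma). Nsf, the ATPase that recycles SNARE complexes and a reported substrate, averaged 10.86 ± 0.13 in knockout retinae and 10.84 ± 0.12 in wild-type retinae (SD, n = 3 each), a difference of 0.017 (SE 0.088). The differences of its adaptor gene Napa, the insulin receptor gene Insr and Stat3 were -0.020 (SE 0.056), 0.071 (SE 0.094) and 0.025 (SE 0.059). Those of the receptor genes Egfr, Erbb2 and Kdr were 0.10 (SE 0.064), -0.025 (SE 0.085) and -0.070 (SE 0.083).

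**Figure D4:**
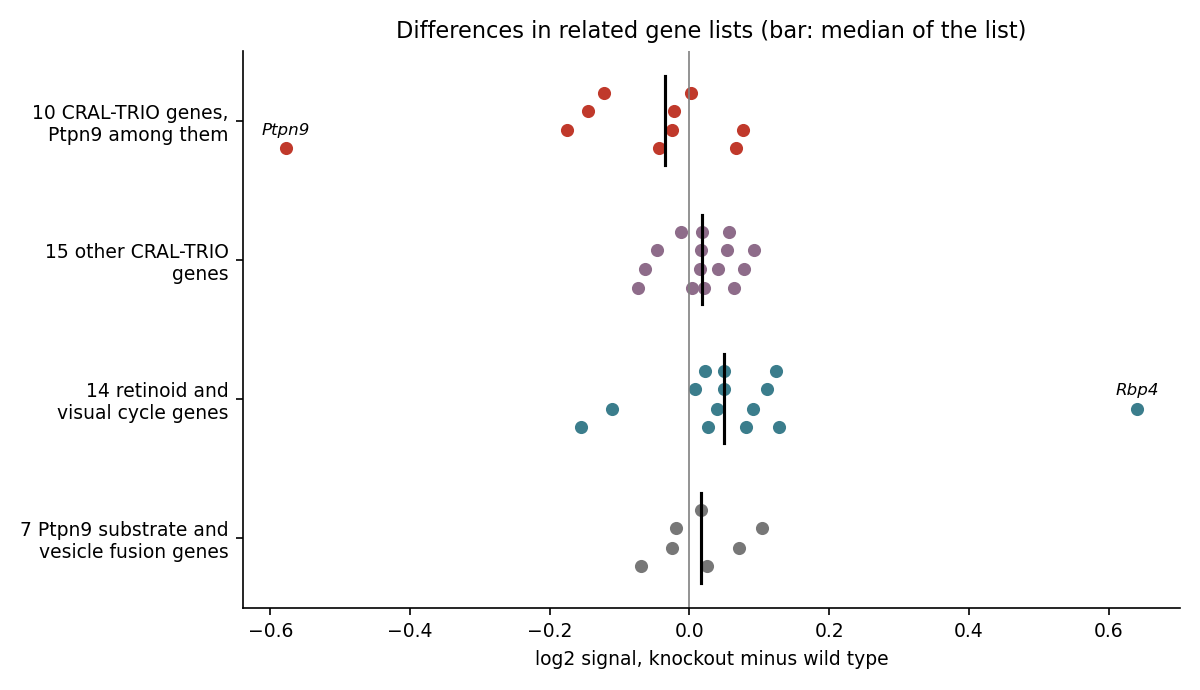
Knockout minus wild-type difference in log2 signal of each gene (points) in 4 lists, with the median of the list as a black bar. Ptpn9 (-0.58) and Rbp4 (0.64) stand apart, and every other gene in these lists lies between -0.18 and 0.13.

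Markers of cell types that the dissection could hold were set beside these values. For the pigment epithelium, a site of Rlbp1, the mean log2 signal of 10 of 10 markers per array ran from 7.19 to 7.48 in the knockout and from 7.19 to 7.30 in the wild type, highest for number 1 and lowest for number 3. The 9 measured markers of Muller glia and retinal progenitors ran from 12.09 to 12.21 in the knockout and from 12.07 to 12.11 in the wild type. The means of this mixed list, like those of the microglia list, were highest for number 3 in both genotypes, as were Rlbp1 and Sec14l2. In both genotypes the mixed list was lowest for number 1, while Rlbp1, Sec14l2 and the microglia list were lowest for number 2. Means of 7 photoreceptor precursor markers were also highest for number 3, at 10.71 in knockout retinae and 10.60 in wild-type retinae, against 10.44 to 10.48 on the other 4 arrays. Means of 7 measured ganglion cell markers were highest for number 2, as was Clvs2, at 11.66 in knockout retinae and 11.57 in wild-type retinae, against 11.36 to 11.51 on the other 4 arrays. The part of these cell types in the values of the 10 genes was not tested, and fewer cells of a type and less RNA per cell cannot be told apart in whole tissue.

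Means were higher in the knockout for every marker list except that of ganglion cells (-0.015). The list differences were 0.21 for endothelium with pericytes, 0.15 for microglia, 0.15 for lens and 0.068 for liver. They were 0.052 for Muller glia and retinal progenitors, and 0.030 for photoreceptor precursors and for amacrine and horizontal cells. Of the markers of lens, endothelium with pericytes, and microglia, 1 of 10, 3 of 9 and 3 of 7 had an unadjusted p under 0.05 (limma). All of these were higher, beside 1.69% of all tested clusters. With the replicate block these counts were 3 of 10, 4 of 9 and 3 of 7, beside 4.46% of all tested clusters. The pigment epithelium list had a mean difference of 0.087, with 8 of its 10 markers above 0 and 2 below, beside 11871 of all 23410 tested clusters above 0. At the same unadjusted level 1 of these 10 markers was higher without the block, Tyr (0.19; limma, unadjusted p = 0.0242). With the block 2 of the 10 were higher and none was lower (limma). The lists were written with earlier results of these data known, so these counts do not test the lists. The lens list of 10 ran from 7.49 to 7.75 in the knockout and from 7.42 to 7.54 in the wild type. Its highest mean was on knockout array 3. There Cryaa read 8.70, against 7.70 and 7.78 on the other knockout arrays, and Cryba1 7.32, against 6.16 and 6.20. The difference of Cryaa was 0.53, and 0.21 without knockout replicate 3. The vascular list of 9 ran from 8.16 to 8.50 in the knockout and from 8.10 to 8.18 in the wild type, and the microglia list of 7 from 7.83 to 8.12 in the knockout and from 7.77 to 7.89 in the wild type. Without the block the vascular calls were Cdh5, Emcn and Rgs5 (0.54, 0.50 and 0.50), while Kdr and Pdgfrb lay below 0 (-0.070 and -0.016). All 3 microglia calls were C1q genes, C1qa, C1qb and C1qc (0.21, 0.47 and 0.21). The differences of Csf1r, Fcrls, Cx3cr1 and Aif1 were 0.085, 0.055, 0.045 and -0.0021. The part of these cell types in the values of the 10 genes was not tested either. The 8 amacrine and horizontal cell markers ran from 10.13 to 10.26 in the knockout and from 10.15 to 10.19 in the wild type. Of 5 liver genes, listed for Ttpa, 4 were measured and ran from 6.74 to 6.98 in the knockout and from 6.73 to 6.86 in the wild type.

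**Figure D5:**
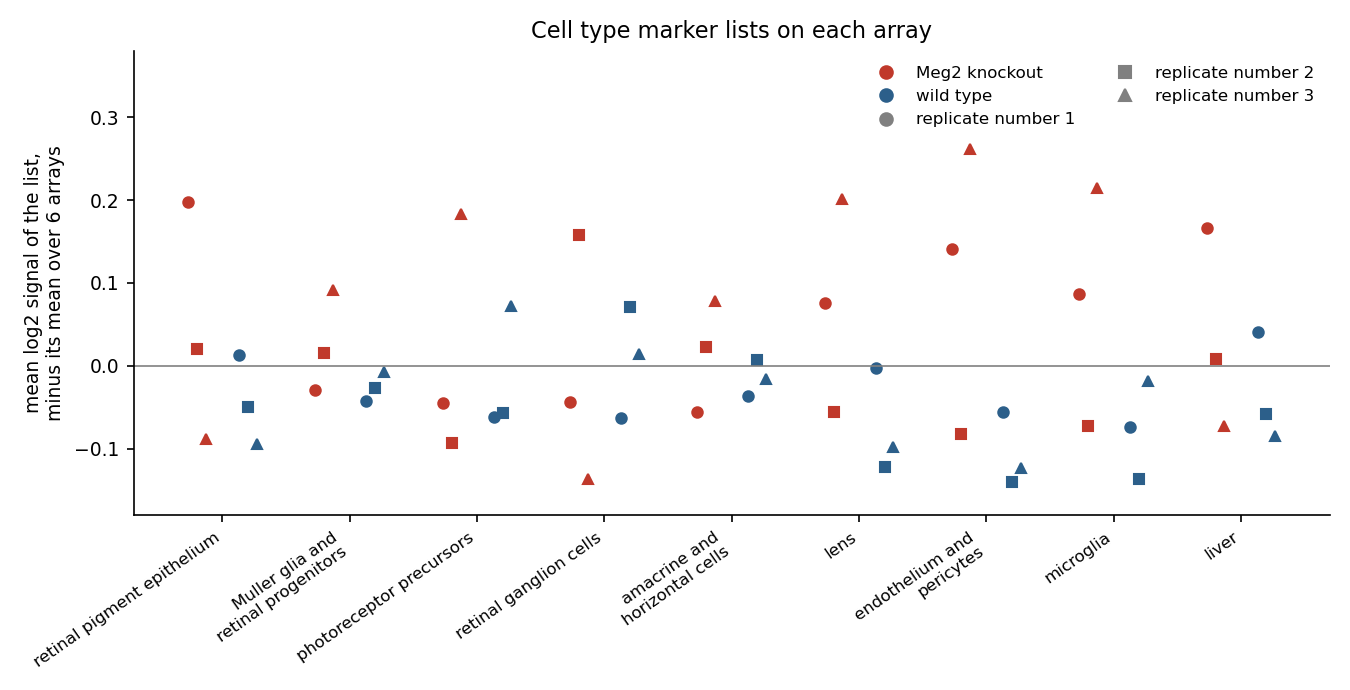
Mean log2 signal of each marker list per array, minus the mean of the list over the 6 arrays, with knockout (red) left of wild type (blue) and symbols for the replicate number. Ganglion cell markers are highest on both arrays with the number 2 and photoreceptor precursor markers on both with the number 3.

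The genes with the array pattern nearest to that of Ptpn9 were ranked by the root-mean-square distance between centred log2 profiles over the 6 arrays, among 19937 genes. Nearest were Olfr118, an odorant receptor gene (0.13), Map1a, a microtubule-associated protein gene (0.15), Svs3b, a seminal vesicle protein gene (0.15), Per3, a clock gene (0.15), and Nnt, the mitochondrial transhydrogenase gene (0.15). A flat profile lay 0.31 from Ptpn9. All 5 were lower in the knockout without overlap, as nearness to Ptpn9 asks, with differences of -0.38, -0.32, -0.36, -0.31 and -0.30. Olfr118 and Svs3b had means of 5.53 and 5.74, below the median of tested clusters. Of the other 9 genes with the domain Clvs2 came nearest, at rank 240 with a distance of 0.23.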

How the data were processed

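Affymetrix Mouse Gene 1.0 ST arrays of 6 retina samples were used, each labelled from 300 ng of total RNA per the labels' protocols. The authors deposited log2 signals per transcript cluster, made with Affymetrix Expression Console and RMA per the submitters' processing notes, which also name Transcriptome Analysis Console. RMA brings the probe signals of all arrays to 1 distribution, which largely takes out a change common to most transcripts. Array medians of the cluster values still differed, from 7.84 to 7.91. No source used here gives versions, the annotation release or the authors' test. A platform annotation named genes, and identifiers of 21698 of 21789 single-gene clusters matched the RefSeq gene table (GRCm38.p6), which changed 0 symbols.

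Genotypes were compared by limma 3.58.1 in R 4.3.3 (lmFit and eBayes, tested on simulated data first) over the 23410 clusters with at least 1 named gene of 35557, with no filter on dim signal and Benjamini-Hochberg adjustment at 0.05. With 3 arrays a group, exact permutation of 1 gene's values gives no p below 0.1. The numbers that pair arrays come from the sample titles, and pairing was taken from the correlation of deviations, above 0.1 for each number. The main fit has no block, so its p-values leave this pairing out, and the fit with the replicate block takes it in. Python 3.11.15, pandas 2.3.3 and matplotlib 3.10.9 made the tables and figures. The number of arrays limits the precision.

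All 10 genes were named. Also named were the 5 genes nearest to Ptpn9, every measured substrate gene, and, from the other 2 lists, genes with an unadjusted p under 0.05 or arrays without overlap and the 3 clusters of highest signal. Rpe65, Rdh12 and the marker genes given by name were chosen after their values were seen. The genes and lists were chosen with earlier results of these data known. Alternatives were the replicate block, cyclic loess, median centring, array weights, robust variance or a variance trend, a signal filter at the median or at the 25th percentile, 1 cluster per gene, every row of the table, each array left out and replicate 2 left out of both genotypes. For Ttpa and Prune2 the other cluster of the gene was a further alternative.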

Additional observations from a re-analysis of the deposited data

How the results depend on the processing

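Ptpn9 was lower in the knockout under all 17 alternatives, by -0.69 to -0.52 on the log2 scale, with an adjusted p from 0.0801 to 0.9999 (limma). With an array left out, or replicate 2 of both genotypes, its difference lay within that same range. Among the other 9 genes no alternative brought an adjusted p under 0.05 (lowest 0.514), and 146 of 153 alternatives kept the direction. The 153 include the other cluster of Ttpa and that of Prune2, which are different probes, and both kept the direction. The exceptions to the direction were Ttpa, at -0.0022 with median centring, -0.0011 with cyclic loess and -0.0048 with array weights, and from -0.052 to 0.037 with arrays left out, and Atcay, from -0.058 to 0.022 with arrays left out. The cause was not tested. With the replicate block, the paired fit, 1 cluster instead of 0 passed adjustment (limma), 2 instead of 0 of the 9 other genes had an unadjusted p under 0.05, and so did 2063 clusters instead of 803. At that unadjusted level the block also added Rbp3, Ttr, Sox9, Thrb, Cryba1, Bfsp2 and Tek (higher) and Rdh12 and Rcvrn (lower) among the listed genes, and ended no call there. With arrays left out the count among the 9 was 0 to 1 (Clvs2, without knockout replicate 2 or without replicate 2 of both genotypes), and the count over all clusters was 636 to 1298, with 1298 without knockout replicate 1 and 1221 without knockout replicate 2. It was 431 among clusters above the median signal, where fewer were tested, and 1331 with every row of the table, where more were. By Pearson's correlation in place of distance, 0 of the 5 genes nearest to Ptpn9 were shared. Ttpa has no value under the filters on signal, since its cluster lies below them.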
